A study of Mus musculus with 40 samples.

Results

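Mouse embryos lacking *Kat6a* were compared directly with mouse embryos lacking its paralogue *Kat6b*, at embryonic day (E) 9.5, in counts per gene from RNA-sequencing of whole embryos. The libraries were chosen by their genotype labels alone, as the 4 labelled *Kat6a* cfd/cfd with *Kat6b* WT, called *Kat6a* null here, and the 4 labelled *Kat6b* dec/dec with *Kat6a* WT, called *Kat6b* null, together 8 of the 24 embryo libraries and of the 40 libraries of the series. The cfd allele lacks exons 3 to 7 of *Kat6a* and the dec allele lacks exons 2 to 12 of *Kat6b*. Both are germline alleles, so every tissue of the embryo was mutant, and both strains were kept on a C57BL/6 background. The study set these nulls beside WT embryos and beside point mutants of the acetyltransferase domain (the homozygous *Kat6a* E/E mutant, its *Kat6b* E/E counterpart and a double mutant, 4 embryos each), all at E9.5 and matched for stage by external appearance. The comparison of the 2 nulls asks which genes depend on one paralogue more than on the other. Values are given in each library as CPM, counts scaled to the library size after correction by the trimmed mean of M values (TMM), and differences as the log2 difference estimated by limma, *Kat6a* null minus *Kat6b* null unless stated otherwise, with its standard error (SE) and a false discovery rate (FDR, Benjamini-Hochberg over all genes tested). Genes at FDR<0.05 are called lower or higher. Values of 4 libraries are listed in the order of replicates 1 to 4.

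KAT6A (MOZ) and KAT6B (MORF) are histone lysine acetyltransferases of the MYST family. Each works in a complex with a BRPF scaffold protein, ING5 and MEAF6, and acetylates lysines in the tail of histone H3. In the embryo, KAT6A is known for its part in the expression of *Hox* genes and of *Tbx1*, a transcription factor gene of the pharyngeal arches and outflow tract, while KAT6B is known for its part in brain development.

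The 8 libraries held 8401990 to 21929384 counts assigned to genes, so the precision of genes with few counts varied between them. No litter held embryos of both null genotypes: the *Kat6a* null embryos came from 3 litters and the *Kat6b* null embryos from 4 other litters, so genotype and breeding colony cannot be told apart in the direct comparison. The study describes the embryos as male, but 3 of the 8 libraries had a high count of *Xist*, the RNA made from the inactive X chromosome in females, namely 7934 in *Kat6a* null replicate 2, 12117 in *Kat6b* null replicate 2 and 16195 in *Kat6b* null replicate 3. Y-linked genes together had at most 4 counts in these 3 libraries. In every other embryo library *Xist* had at most 6 counts and Y-linked genes at least 1454. The number of calls and the values of some genes and lists are therefore also given without these libraries. Other values below come from all 8 libraries only. Without the 3 libraries limma called 0 genes, and all 62 named genes that were called lost their call. Markers of the neural tube (*Sox2*, *Pax6*), somites (*Meox1*, *Tcf15*) and heart (*Nkx2-5*, *Myl7*) were detected in each of the 8 libraries, the lowest value being 8.17 CPM for *Nkx2-5*. Whole transcriptomes of the 2 nulls lay hardly further apart than embryos of one genotype. Taking for each pair of libraries the root mean square of its 500 largest log2 differences, the mean distance was 1.41 between the nulls (16 pairs), 1.39 within *Kat6a* null and 1.29 within *Kat6b* null.

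The targeted genes were read first. *Kat6a* (chromosome 8 from 23349545 to 23433275, GRCm39, plus strand) was at 159.8, 165, 168 and 171 CPM in the *Kat6a* null libraries and at 161, 182, 184 and 196 CPM in the *Kat6b* null libraries (log2 difference -0.11, SE 0.09, FDR=0.574). The ranges overlapped, and the count over the whole gene did not mark the *Kat6a* null embryos. *Kat6b* (chromosome 14 from 21531502 to 21722546, plus strand) was at 43.9, 42.04, 44.1 and 42.2 CPM in *Kat6a* null and at 54.4, 51.99, 53.1 and 58.3 CPM in *Kat6b* null embryos, whose every library lay above every *Kat6a* null library although the allele lacks exons (log2 difference -0.29, SE 0.064, FDR=0.0255). WT libraries were at 42.6, 38.2, 42.6 and 38.3 CPM for *Kat6b*. In the canonical GENCODE transcripts the deleted exons make up 14.9% of the exonic bases of *Kat6a* (1357 of 9133) and 27.2% of those of *Kat6b* (2005 of 7372), if exons are numbered as in these transcripts. Counts summed over all exons therefore do not check the genotype labels. Per kilobase of gene length, in units of CPM per kilobase, the level of *Kat6a* was 19.3 and that of *Kat6b* 5.17 in WT embryos (means of 4 libraries). Among 11 genes of the KAT6 complexes and the MYST family, *Kat6b* was the only one that passed the test between the nulls (1.64% of all genes tested passed it).

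Between the nulls, 232 of 14183 protein-coding genes differed at FDR<0.05 (limma, 1.64% of the genes tested): 96 were lower and 136 higher in *Kat6a* null than in *Kat6b* null embryos (0.677% and 0.959%). At an unadjusted p below 0.05 there were 2457 genes (17.3%). Over all genes tested 7223 differences were negative and 6960 positive. Most differences were small. The median log2 difference was -0.25 among the lower and 0.40 among the higher genes, and only 9 genes differed by more than 1 on the log2 scale. The 8 CPM values of the 2 genotypes did not overlap for 172 of the 232 genes, beside 11.0% of all genes tested. The number of calls depended on single libraries. It was 33, 60, 110 and 134 without *Kat6a* null replicates 1, 2, 3 and 4, and 477, 77, 30 and 99 without *Kat6b* null replicates 1, 2, 3 and 4. Without the 3 libraries with high *Xist*, which leaves 3 against 2 embryos, limma called 0 genes, with 1415 at an unadjusted p below 0.05 and a lowest FDR of 0.0874, while all 232 genes kept the sign of their difference, with medians of -0.24 and 0.33. In a fit with a sex term, 71 genes were called, 57 of them among the 232. These genes had been called with the same 8 libraries, so the kept signs are a description.

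**Figure D1:**
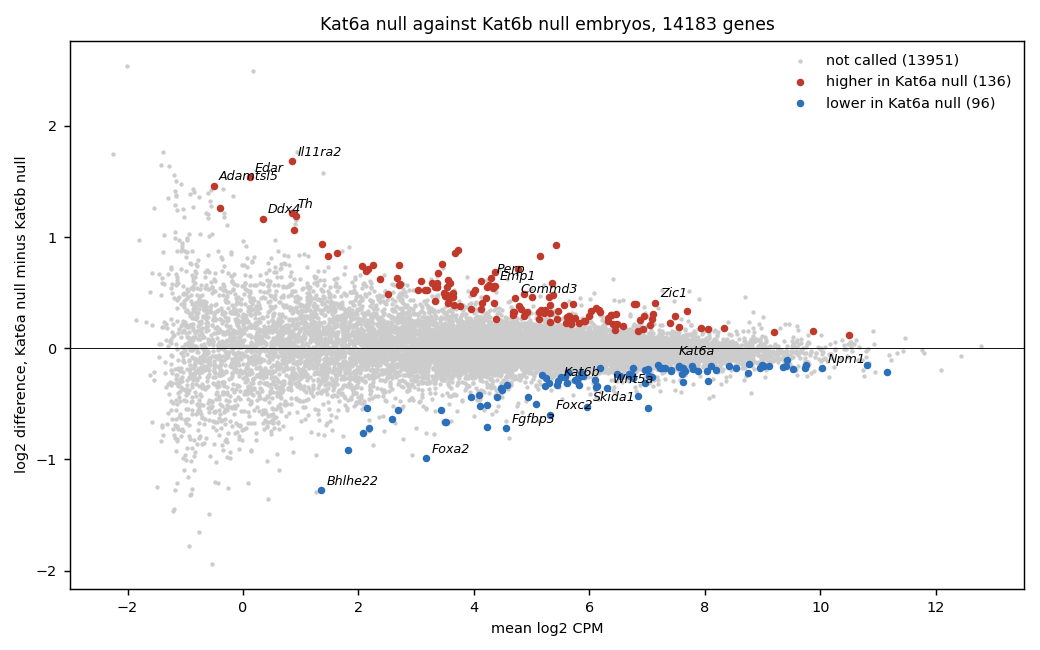
Log2 difference between *Kat6a* null and *Kat6b* null embryos (vertical axis, positive where *Kat6a* null was higher) against mean log2 CPM over the 24 embryo libraries (horizontal axis), 1 point per gene. Red marks the 136 genes higher and blue the 96 genes lower in *Kat6a* null embryos at FDR<0.05, and grey the genes not called. The 9 genes beyond 1 on the log2 scale all lie at the weakly expressed end, at a mean of at most 1.36 log2 CPM.

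*Skida1* and *Commd3*, both among the genes with the lowest FDR of the comparison, lay close together on chromosome 2, in the neighbourhood of the Polycomb gene *Bmi1*, and were called in opposite directions. *Skida1*, which encodes a protein with a SKI/DACH domain, was at 35.6, 58.2, 48.6 and 38.6 CPM in *Kat6a* null, 50.8, 68.7, 71.2 and 66.4 in *Kat6b* null and 78.02, 77.3, 73.8 and 87.5 in WT embryos. All 8 null libraries were below every WT library, and the *Kat6a* null libraries were lower, with an overlap of 1 library on each side (log2 difference -0.53, SE 0.08, FDR=0.00341). *Commd3*, the direct neighbour of *Bmi1*, was at 33.97, 25.2, 32.4 and 33.2 CPM in *Kat6a* null, 26.01, 19.4, 22.00 and 22.1 in *Kat6b* null and 21.6, 22.5, 25.6 and 22.4 in WT embryos, and was higher in *Kat6a* null embryos (log2 difference 0.45, SE 0.07, FDR=0.00341). Only *Kat6a* null replicate 2, a library with high *Xist*, lay within the range of the other genotypes. *Bmi1* itself was not called (0.11, FDR=0.352), nor were *Dnajc1*, *Mllt10* and *Pip4k2a* of the same neighbourhood. Thus 1 of 6 measured genes was lower and 1 higher (0.677% and 0.959% of all genes tested). Without the libraries with high *Xist* the log2 differences were -0.58 for *Skida1* and 0.44 for *Commd3*.

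KAT6A is known to bind unmethylated CpG-rich DNA through its winged helix domain. The study describes the domain structure of KAT6B as identical. Binding of either protein to DNA was not measured here. The sequence just upstream of *Skida1* and *Commd3* is shown here. Beside it are those of *Foxc2*, a forkhead gene lower in *Kat6a* null embryos, and of *Perp*, a desmosome gene higher in them. Each is the 250 bases that end 1 base before the start of the canonical GENCODE transcript, 5′ to 3′ on the strand of the gene, with every CG in capitals (GRCm39).
*Skida1*, chr2:18053863-18054112, minus strand, 5 CG: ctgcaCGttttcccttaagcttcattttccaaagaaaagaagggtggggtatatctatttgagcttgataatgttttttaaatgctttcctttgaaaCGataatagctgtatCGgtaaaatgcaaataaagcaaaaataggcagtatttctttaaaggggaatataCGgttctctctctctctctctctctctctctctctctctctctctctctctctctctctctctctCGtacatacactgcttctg
*Commd3*, chr2:18676971-18677220, plus strand, 43 CG: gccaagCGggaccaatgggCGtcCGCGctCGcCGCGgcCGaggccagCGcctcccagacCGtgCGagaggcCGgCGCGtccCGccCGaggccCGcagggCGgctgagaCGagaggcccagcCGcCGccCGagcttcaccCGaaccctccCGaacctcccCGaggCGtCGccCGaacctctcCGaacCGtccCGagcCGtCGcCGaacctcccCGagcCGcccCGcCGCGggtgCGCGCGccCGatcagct
*Foxc2*, chr8:121842660-121842909, plus strand, 8 CG: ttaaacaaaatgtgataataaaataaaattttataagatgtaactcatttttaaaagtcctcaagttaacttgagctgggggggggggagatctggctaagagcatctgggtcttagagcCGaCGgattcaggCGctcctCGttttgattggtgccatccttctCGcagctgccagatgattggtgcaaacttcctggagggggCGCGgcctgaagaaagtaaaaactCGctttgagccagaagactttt
*Perp*, chr10:18720465-18720714, plus strand, 10 CG: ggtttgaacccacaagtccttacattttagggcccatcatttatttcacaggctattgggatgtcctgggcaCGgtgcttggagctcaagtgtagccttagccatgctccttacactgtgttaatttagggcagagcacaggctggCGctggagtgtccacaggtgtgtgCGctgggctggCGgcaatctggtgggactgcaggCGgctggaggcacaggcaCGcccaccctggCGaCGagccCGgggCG
The *Skida1* window overlaps an exon of the non-coding gene *1810059C17Rik* and the *Commd3* window exons of another annotated gene, while those of *Foxc2* and *Perp* hold no annotated exon. *Commd3* had many CG and *Skida1* few, against a median of 12 over the 14144 tested genes with a sequence. In the genes lower in *Kat6a* null embryos the median was 17.5 CG per 250 bases (quartiles 11 and 25.25, 96 genes) and in the genes higher in them 11 (quartiles 6 and 18, 136 genes). At least 25 CG were present upstream of 27.1% of the lower genes, 9.56% of the higher genes and 11.8% of all genes tested. The lower genes were also more strongly expressed, with a median of 6.61 log2 CPM against 4.74 for the higher genes. These counts are a description with no test.

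The genes lower in *Kat6a* null embryos included developmental regulators whose level in *Kat6b* null embryos was at WT or nearer to it. *Fgfbp3*, which encodes a carrier protein for FGF ligands, was at 13.7, 16.8, 15.6 and 16.3 CPM in *Kat6a* null, 28.7, 25.6, 29.9 and 20.8 in *Kat6b* null and 28.1, 26.8, 26.6 and 26.9 in WT embryos (log2 difference -0.72, SE 0.11, FDR=0.00341). *Foxc2*, a forkhead gene of mesoderm and arch development, was at 26.6, 28.02, 32.8 and 31.4 CPM in *Kat6a* null, 54.1, 49.8, 48.6 and 45.6 in *Kat6b* null and 40.6, 47.4, 43.7 and 50.9 in WT embryos (log2 difference -0.60, SE 0.097, FDR=0.00412). For both genes every *Kat6a* null library was below every library of the other 2 genotypes. *Bhlhe22*, a neuronal bHLH gene, had the most negative log2 difference of all called genes, at 0.706, 1.46, 0.938 and 1.17 CPM in *Kat6a* null, 2.31, 2.73, 2.98 and 1.93 in *Kat6b* null and 3.98, 4.202, 3.55 and 2.47 in WT embryos (log2 difference -1.28, SE 0.22, FDR=0.00493). *Sfrp2*, a secreted Wnt modulator, was below WT in both nulls and lower in *Kat6a* null, at 93.97, 109, 91.8 and 98.6 CPM against 113, 134, 127 and 118 in *Kat6b* null and 147, 144, 149.96 and 143 in WT embryos (log2 difference -0.31, SE 0.055, FDR=0.00549). *Pde3b*, a cyclic nucleotide phosphodiesterase gene, was at 57.4, 58.4, 60.8 and 61.4 CPM in *Kat6a* null against 73.6, 72.2, 77.9 and 80.1 in *Kat6b* null embryos (log2 difference -0.34, SE 0.052, FDR=0.00341). Its WT libraries, at 69.2, 68.6, 69.9 and 75.04 CPM, lay above the *Kat6a* null libraries, and 1 of them within the *Kat6b* null range. *Tmod2*, a neuronal tropomodulin gene, had a log2 difference of -0.50 (FDR=0.00555).

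For other lower genes the *Kat6b* null embryos lay further from WT. *Wnt5a*, a ligand of non-canonical Wnt signalling, was at 94.7, 67.5, 79.7 and 75.6 CPM in *Kat6a* null and 64.3, 74.3, 82.9 and 62.8 in WT embryos, which overlapped, and at 99.7, 99.8, 91.8 and 121 CPM in *Kat6b* null embryos (log2 difference -0.36, SE 0.067, FDR=0.00792). The *Kat6b* null embryos were above WT (0.40, FDR=0.00474). *Wnt5a* lies on the chromosome of *Kat6b*. *Npm1*, the nucleolar histone chaperone nucleophosmin, was at 1028, 943, 972 and 1036 CPM in *Kat6a* null, 1089, 1158, 1082 and 1286 in *Kat6b* null and 1016, 953, 957 and 1063 in WT embryos (log2 difference -0.18, SE 0.032, FDR=0.00549), with the *Kat6b* null libraries above all others. *U2surp*, which encodes a protein associated with the U2 small nuclear ribonucleoprotein, was higher than WT in *Kat6b* null embryos (0.17, FDR=0.037) and not called against WT in *Kat6a* null embryos (-0.061, FDR=0.468), with -0.24, FDR=0.00397 between the nulls. *Ipo5*, a nuclear import receptor gene, and *Mphosph8*, a gene of the HUSH silencing complex, had log2 differences of -0.15 (FDR=0.00716) and -0.29 (FDR=0.0102) between the nulls.

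Among the genes higher in *Kat6a* null embryos, *Ajuba*, which encodes a LIM protein of cell junctions, had the smallest p, at 243, 236, 216 and 221 CPM in *Kat6a* null, 182, 209, 154 and 202 in *Kat6b* null and 210.4, 202, 203 and 212 in WT embryos (log2 difference 0.34, SE 0.051, FDR=0.00341). The *Kat6a* null libraries lay above all others, and *Kat6b* null embryos were below WT in the fit (-0.23, FDR=0.0374), with 1 of 4 libraries inside the WT range. *Zic1*, a zinc finger gene of the dorsal neural tube, was at 164, 213, 139 and 148 CPM in *Kat6a* null and 104, 124, 135 and 113 in *Kat6b* null embryos (log2 difference 0.41, SE 0.065, FDR=0.00341), with WT libraries at 155, 145, 139 and 140.3. Every *Kat6b* null library was below every WT library, and the *Kat6a* null and WT ranges overlapped. The high-*Xist* *Kat6a* null library was the highest for *Zic1*, and without the 3 such libraries the log2 difference was 0.40. *Emp1*, an epithelial membrane protein gene, was at 24.3, 33.3, 26.4 and 24.2 CPM in *Kat6a* null, 18.4, 15.5, 16.2 and 14.9 in *Kat6b* null and 17.9, 20.9, 17.2 and 16.1 in WT embryos (log2 difference 0.56, SE 0.094, FDR=0.00365). The *Kat6a* null libraries lay above all libraries of the other 2 genotypes for *Emp1*, for *Arap1*, a regulator of ARF GTPases (0.38, FDR=0.00555), and for *Pygl*, the liver form of glycogen phosphorylase (0.54, FDR=0.00761). *Cd151*, a tetraspanin gene (0.35, FDR=0.00341), *Kank1*, a regulator of the actin cytoskeleton (0.30, FDR=0.00506), *Megf6* (0.40, FDR=0.00716) and the X-linked *Renbp*, which encodes renin binding protein (0.59, FDR=0.00555), were also higher. Of 501 X-linked genes tested, 7 were called (1.40%, beside 1.64% of all genes tested).

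**Figure D2:**
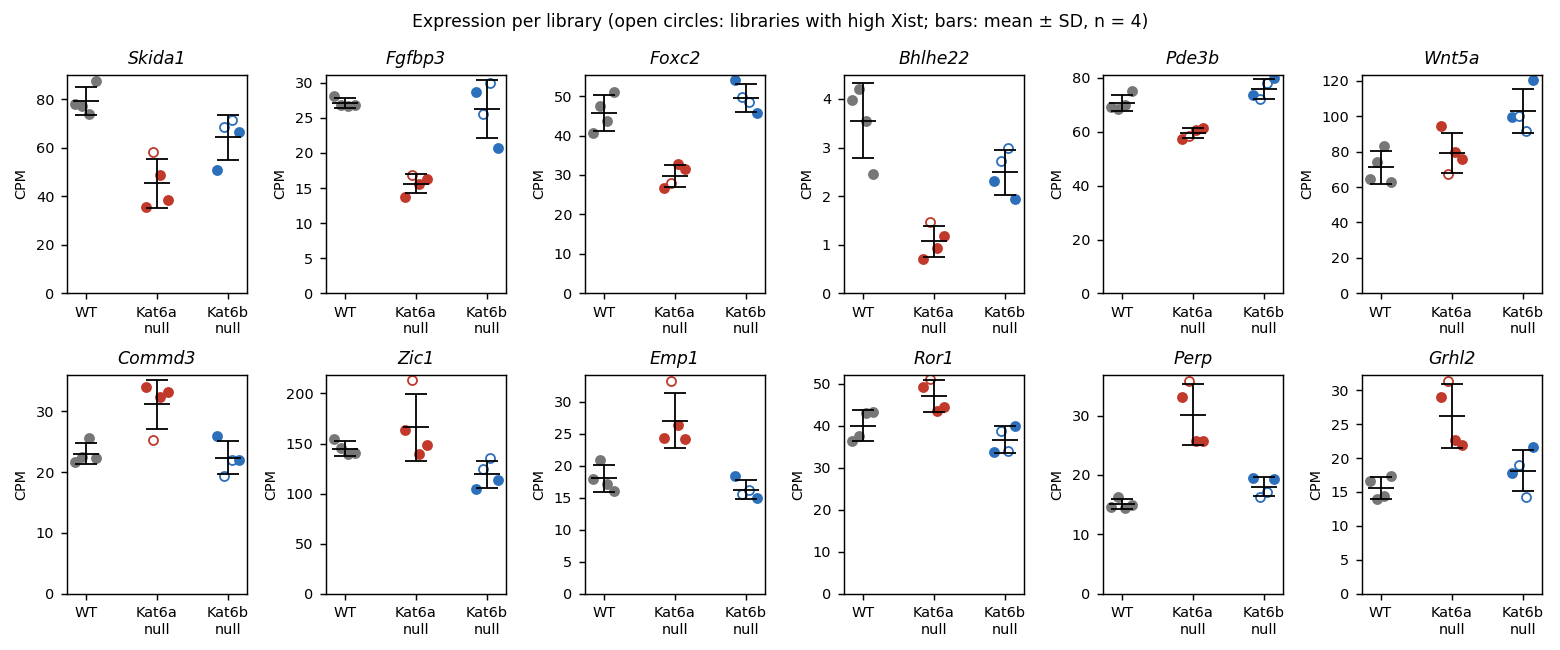
CPM of 12 genes (vertical axes, starting at 0) in each of the 4 WT (grey), 4 *Kat6a* null (red) and 4 *Kat6b* null libraries (blue), with mean and SD as bars and the 3 libraries with high *Xist* as open circles. *Fgfbp3*, *Foxc2*, *Bhlhe22* and *Pde3b* were lowest in *Kat6a* null embryos, *Wnt5a* was highest in *Kat6b* null embryos, and *Emp1*, *Perp* and *Grhl2* were highest in *Kat6a* null embryos.

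*Hox* genes, which specify position along the body axis, were examined by paralogue group. Of 38 tested, 3 were lower in *Kat6a* null than in *Kat6b* null embryos and 0 higher (all genes tested, 0.677% lower), and the median log2 difference was -0.28 (-0.30 without the libraries with high *Xist*), beside -0.0026 over all genes. *Hoxb1*, expressed in rhombomere 4 of the hindbrain, was at 14.1, 16.6, 13.2 and 14.4 CPM in *Kat6a* null, 21.5, 26.9, 19.5 and 24.6 in *Kat6b* null and 17.2, 20.6, 21.5 and 20.2 in WT embryos (log2 difference -0.51, SE 0.11, FDR=0.0272). The null groups did not overlap, while WT replicate 1, a littermate of *Kat6a* null replicate 2, was nearly as low as that embryo. *Hoxc4* was at 27.6, 26.03, 25.6 and 24.9 CPM in *Kat6a* null and 42.2, 33.7, 39.95 and 32.6 in *Kat6b* null embryos (log2 difference -0.44, SE 0.098, FDR=0.0287). WT libraries, at 28.2, 41.3, 32.99 and 28.1 CPM, lay above the *Kat6a* null and overlapped the *Kat6b* null libraries. *Hoxa5* (log2 difference -0.33, SE 0.086, FDR=0.0472) was at 25.8, 19.6, 22.8 and 20.8 against 36.9, 25.6, 27.04 and 25.8 CPM, with groups that overlapped narrowly. In groups 1 to 3 the median difference of 8 genes from WT was -0.39 in *Kat6a* null and -0.09 in *Kat6b* null embryos. In groups 9 to 13 the median of 15 genes was 0.17 in *Kat6a* null and 0.53 in *Kat6b* null embryos, and 0 of them passed the test between the nulls (median -0.42). Between *Kat6a* null and WT embryos 4 of the 8 genes of groups 1 to 3 were called (2.64% of all genes), and between *Kat6b* null and WT embryos 1 of the 15 genes of groups 9 to 13 (0.508%). The summed level of groups 9 to 13 was 211 to 304 CPM in *Kat6a* null, 269 to 368 in *Kat6b* null and 139 to 292 in WT embryos, so the ranges overlapped and the WT libraries were widely spread.

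Regulatory genes of the pharyngeal arches and the second heart field, which form the outflow tract, were called lower in *Kat6a* null embryos for 4 of 20 genes tested and higher for 0 (median -0.19, or -0.22 without the libraries with high *Xist*, with 0.677% of all genes called lower). They were *Foxc2*, *Prdm1*, *Foxa2* and *Tbx1*. *Tbx1* was at 12.5, 17.7, 14.1 and 12.97 CPM in *Kat6a* null, 18.5, 22.5, 18.9 and 24.5 in *Kat6b* null and 25.8, 25.3, 24.5 and 31.8 in WT embryos (log2 difference -0.44, SE 0.11, FDR=0.0364). The ranges of the 3 genotypes did not overlap, with *Kat6b* null between *Kat6a* null and WT embryos. *Prdm1*, a zinc finger repressor gene, was at 8.38, 6.64, 7.898 and 9.08 CPM in *Kat6a* null and 11.8, 15.3, 12.3 and 16.6 in *Kat6b* null embryos (log2 difference -0.55, SE 0.11, FDR=0.0186). *Foxa2*, a gene of endoderm and floor plate, was at 2.74, 3.72, 7.58 and 5.76 CPM in *Kat6a* null and 7.66, 12.1, 11.3 and 9.23 in *Kat6b* null embryos (log2 difference -0.99, SE 0.21, FDR=0.0266). For both genes the null groups did not overlap, and the *Kat6b* null range overlapped WT, at 11.9, 10.5, 12.3 and 16.2 CPM for *Prdm1* and 11.9, 11.1, 9.05 and 13.1 CPM for *Foxa2*. *Six2* and *Isl1* were not called between the nulls, at -0.33, FDR=0.0804 and -0.32, FDR=0.0923. All 11 T-box genes tested had a negative log2 difference (median -0.23), beside 7223 of all 14183 genes, and *Tbx1* alone passed the test. Of 37 forkhead genes 2 were lower (*Foxc2* and *Foxa2*, median -0.06). *Nkx2-6*, an arch and sinus venosus homeobox gene named here after its value was seen, had the log2 difference -0.77 (FDR=0.0401). Of the segmentation and somite genes 1 of 22 was called, *Uncx* (-0.66, FDR=0.0409), and all 22 had a negative difference (median -0.21). Of 27 cardiac genes limma called 0, edgeR's quasi-likelihood test with the surrogate variables 1 and DESeq2 2. In limma 9 of them had an unadjusted p below 0.05 (17.3% of all genes tested). Their smallest FDRs in limma were those of *Mef2c* (-0.33, FDR=0.0582) and *Myl3* (0.40, FDR=0.0635).

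Neural genes passed the test singly and in both directions (of all genes, 0.677% were lower and 0.959% higher). Of 29 early neuron genes 1 was lower in *Kat6a* null embryos, *Lhx1*, a LIM homeobox gene, at 1.76, 1.73, 3.68 and 2.201 CPM against 3.89, 4.88, 4.85 and 4.62 in *Kat6b* null and 2.59, 4.89, 4.31 and 4.34 in WT embryos (log2 difference -0.91, SE 0.24, FDR=0.0491). WT replicate 1 was again among the low libraries. Of 18 proneural bHLH genes *Bhlhe22* was lower and *Olig3*, a gene of dorsal progenitors, higher (0.68, FDR=0.0383), and of 20 neural progenitor genes *Notch1* was lower (-0.25, FDR=0.0321) and *Zic1* higher. *Crmp1*, which encodes a collapsin response mediator of axon growth, and *Celsr2*, a planar cell polarity cadherin gene, were called lower in *Kat6a* null embryos (-0.23, FDR=0.0328 and -0.26, FDR=0.0349), but their ranges overlapped, at 86.6, 129, 100.2 and 91.9 against 83.98, 128, 147 and 116 CPM for *Celsr2*, and *Celsr2* was called in only 8 of 27 alternative fits. *Ntn1*, the floor plate guidance cue netrin 1, was at 69.3, 105, 90.3 and 94.5 CPM in *Kat6a* null, 133, 141, 148 and 123 in *Kat6b* null and 153, 167, 151 and 153 in WT embryos (log2 difference -0.53, SE 0.11, FDR=0.0343). The 3 ranges of *Ntn1* did not overlap. Of 34 regional brain transcription factor genes limma called 0 (median -0.14, turning to 0.097 in the fit with a sex term), edgeR 0 and DESeq2 1. In limma 9 of them had an unadjusted p below 0.05 (17.3% of all genes tested). The smallest FDRs in limma were at *Nkx6-1* (-0.65, FDR=0.077) and *Nkx6-2* (-0.77, FDR=0.0821). *Tubb2b*, a tubulin gene, was below WT in both nulls (-0.23, FDR=0.00431 in *Kat6a* null and -0.30, FDR=0.00321 in *Kat6b* null embryos) and was not called between them (0.068, FDR=0.442). *Rbm3*, a cold-inducible RNA-binding protein gene, was above WT in both (0.28, FDR=0.0205 and 0.40, FDR=0.00441) and likewise not called (-0.13, FDR=0.299).

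Genes of Wnt signalling were called in both directions. Of 30 Wnt modulators and targets 2 were lower and 4 higher in *Kat6a* null embryos (0.677% and 0.959% of all genes), and of 34 ligands and receptors 1 was lower and 2 higher. The lower modulators were *Sfrp2* and *Frzb*, both secreted Wnt antagonists or modulators. The higher ones included *Axin2*, a widely used target of canonical Wnt signalling, at 150.4, 146, 126 and 121 CPM in *Kat6a* null and 117, 114, 96.2 and 102 in *Kat6b* null embryos (log2 difference 0.39, SE 0.086, FDR=0.0321), *Notum*, a secreted Wnt deacylase gene, at 16.4, 16.9, 15.5 and 14.2 and 12.6, 11.2, 10.4 and 11.4 CPM (log2 difference 0.47, SE 0.11, FDR=0.0302), and *Sostdc1*, an antagonist of BMP and Wnt signals, at 19.9, 19.9, 14.4 and 14.6 and 11.3, 9.02, 7.74 and 11.2 CPM (log2 difference 0.76, SE 0.18, FDR=0.0401). For these 3 genes the *Kat6a* null libraries lay above all *Kat6b* null and all WT libraries. *Ror1*, a receptor of WNT5A, was at 49.3, 51.3, 43.5 and 44.4 against 33.7, 38.8, 34.1 and 40.04 CPM (log2 difference 0.39, SE 0.065, FDR=0.00365), opposite in direction to its ligand gene *Wnt5a*, and the receptor gene *Fzd8* was also higher (0.35, FDR=0.0308). In the hedgehog pathway the receptor and target gene *Ptch1* was lower, at 139, 154, 176 and 171 against 201, 223, 213 and 236 CPM (log2 difference -0.31, SE 0.075, FDR=0.0468), and the co-receptor gene *Cdon* higher (0.29, FDR=0.0234), of 16 genes tested. The ligand gene *Shh*, named here after its values were seen, was at 5.38, 15.5, 20.3 and 15.8 CPM in *Kat6a* null, 20.4, 31.3, 25.9 and 22.3 in *Kat6b* null and 28.98, 29.4, 29.3 and 29.7 in WT embryos and was not called (log2 difference -0.81, SE 0.24, FDR=0.0939). *Msx1* (0.48, FDR=0.0186) and *Msx2* (0.35, FDR=0.0441), homeobox genes of BMP-responsive tissue, were higher, and of 24 neural crest genes *Ets1* (-0.25, FDR=0.0349) and *Barx1* (-0.71, FDR=0.0472) were lower. Of 20 BMP, 29 FGF and 18 retinoic acid pathway genes limma called 0, while edgeR called 1 FGF gene and DESeq2 0. In limma 6, 4 and 1 of them had an unadjusted p below 0.05 (17.3% of all genes tested). Their smallest FDRs in limma were at *Bmp7* (0.27, FDR=0.0742), *Dusp6* (-0.20, FDR=0.0617) and *Rxrb* (0.15, FDR=0.0872).

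**Figure D3:**
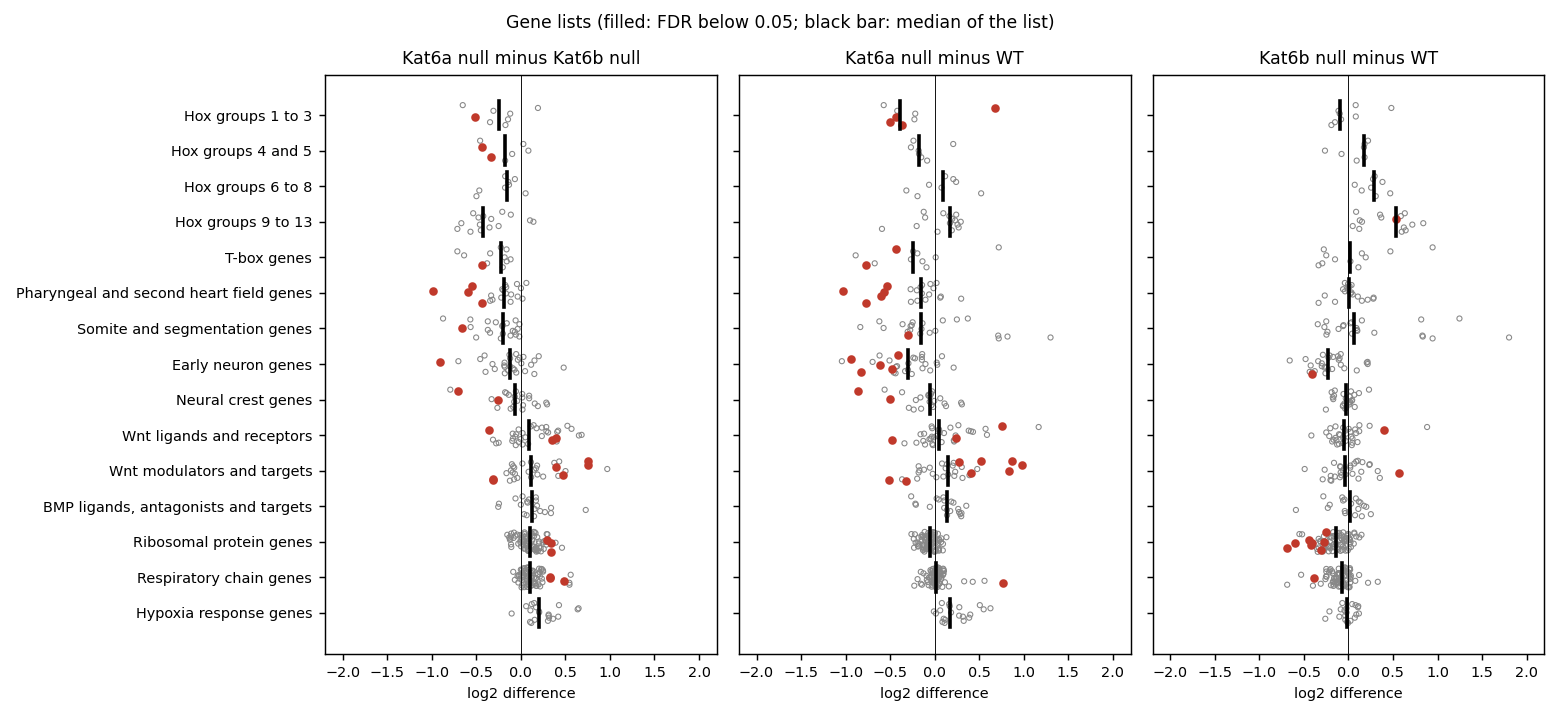
Log2 differences (horizontal axes) of the genes of 15 lists (rows), 1 point per gene, between the nulls (left), between *Kat6a* null and WT (middle) and between *Kat6b* null and WT embryos (right). Filled points passed FDR<0.05 and black bars are the medians. The bar of *Hox* groups 9 to 13 lies at 0.17 in *Kat6a* null and 0.53 in *Kat6b* null embryos, and that of the ribosomal protein genes at -0.06 and -0.14.

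Several genes known from epithelial cells were higher in *Kat6a* null embryos. *Perp*, a p53 target gene and component of desmosomes, was at 33.2, 35.8, 25.8 and 25.7 CPM in *Kat6a* null, 19.6, 16.3, 17.1 and 19.3 in *Kat6b* null and 14.6, 16.3, 14.46 and 14.9 in WT embryos (log2 difference 0.63, SE 0.14, FDR=0.0331). *Grhl2*, a grainyhead transcription factor gene of surface ectoderm, was at 29.03, 31.4, 22.7 and 21.9 CPM in *Kat6a* null, 17.9, 18.9, 14.2 and 21.6 in *Kat6b* null and 16.6, 13.98, 14.46 and 17.3 in WT embryos (log2 difference 0.57, SE 0.13, FDR=0.0302). The *Kat6a* null libraries were above every other library for both genes, and among them replicates 1 and 2 were higher than replicates 3 and 4. The splicing regulator gene *Esrp1* (0.46, FDR=0.0287), the protease gene *St14* (0.55, FDR=0.0308), its inhibitor gene *Spint1* (0.50, FDR=0.0272) and the tight junction gene *Tjp3* (0.59, FDR=0.0272) were higher as well. A list of 50 epithelial genes was assembled after the leading genes had been seen, so it is no independent evidence. Of the 47 tested, 15 were higher and 0 lower in *Kat6a* null embryos (0.959% and 0.677% of all genes), with a median log2 difference of 0.46 that was 0.22 without the libraries with high *Xist*. *Cdh1* and *Epcam*, general epithelial adhesion genes, were not called, at 0.41, FDR=0.0898 and 0.27, FDR=0.168. The summed level of the list was 1046 to 1249 CPM in *Kat6a* null, 793 to 1051 in *Kat6b* null and 738 to 904 in WT embryos. In whole embryos, more cells of a type and more RNA per cell cannot be told apart. *Edar*, the ectodysplasin receptor gene, named here after its value was seen, was at 2.21, 3.25, 2.27 and 1.45 CPM in *Kat6a* null, 0.365, 0.577, 0.746 and 0.811 in *Kat6b* null and 1.04, 1.46, 1.27 and 1.18 in WT embryos (log2 difference 1.54, SE 0.34, FDR=0.0272). The null groups did not overlap, and 1 *Kat6a* null library lay within the WT range.

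A few genes of protein synthesis and respiration were higher in *Kat6a* null embryos, some of them with *Kat6b* null levels below WT. Of 84 ribosomal protein genes 3 were called higher and 0 lower (0.959% and 0.677% of all genes, median 0.10). *Rpl37a* was at 85.6, 74.4, 72.3 and 74.3 CPM in *Kat6a* null, 68.2, 62.8, 53.8 and 52.7 in *Kat6b* null and 73.8, 77.9, 71.2 and 78.6 in WT embryos (log2 difference 0.34, SE 0.077, FDR=0.0302). *Rplp2* was at 97.1, 88.3, 99.2 and 89.6 CPM in *Kat6a* null, 81.7, 74.5, 77.8 and 65.3 in *Kat6b* null and 106, 106, 92.2 and 93.2 in WT embryos (log2 difference 0.30, SE 0.071, FDR=0.0349). The *Kat6b* null libraries were the lowest for both genes. Ribosomal protein genes have many near-identical processed copies in the genome, so that reads may have been divided among them and these values are uncertain. Of 83 respiratory chain genes *Ndufa3* (0.33, FDR=0.039), *Ndufa7* (0.32, FDR=0.0472) and *Cox6b2* (0.49, FDR=0.0401) were higher (median 0.10, 74 of 83 positive). *Slc7a11*, the cystine transporter gene of the stress response, was at 19.9, 18.6, 17.4 and 14.2 CPM in *Kat6a* null, 11.5, 9.34, 9.65 and 7.23 in *Kat6b* null and 18.7, 18.9, 16.6 and 15.8 in WT embryos (log2 difference 0.85, SE 0.20, FDR=0.0441). Here the *Kat6b* null libraries alone were low. Of 20 hypoxia response genes limma, edgeR and DESeq2 called 0, with 9 at an unadjusted p below 0.05 in limma (17.3% of all genes tested). A positive difference was present in 19 of them (median 0.20), beside 6960 of all 14183 genes. The smallest FDR was that of *Pgk1*, a glycolytic enzyme gene (0.36, FDR=0.0885). Replication, mitosis, Polycomb, replication-dependent histone, protocadherin, tubulin and imprinted growth genes also had 0 called members in limma, with list medians between -0.05 and 0.08. Over the 25 lists with 0 calls in limma, 0 to 9 members had an unadjusted p below 0.05, edgeR called 0 or 1 and DESeq2 0 to 2.

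Markers of tissues that could be carried along with an embryo were not called between the nulls in limma, but differed between libraries. The summed level of visceral endoderm and liver markers was 16.4 to 207 CPM in *Kat6a* null and 26.2 to 70.0 CPM in *Kat6b* null embryos, with *Kat6a* null replicate 4 and WT replicate 4 (222 CPM) far above the rest, and the median log2 difference was 0.76. It was 1.24 without the libraries with high *Xist*. Primitive erythroid markers summed to 5029 to 11402 CPM in *Kat6a* null and 3974 to 14418 CPM in *Kat6b* null embryos, with a median log2 difference of -0.21 that turned to 0.53 without these libraries. Endothelial markers summed to 335 to 469 CPM in *Kat6a* null and 469 to 526 CPM in *Kat6b* null embryos. All 12 had a negative difference (median -0.17), beside 7223 of all 14183 genes. Only 2 of 8 trophoblast markers passed the filter on low counts. The part of such tissue in the differences above was not tested.

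For each called gene the WT level was placed on the line from the *Kat6b* null to the *Kat6a* null level of the fit. Of the 96 lower genes, WT lay nearer to *Kat6b* null for 42 and beyond it for 13, so that *Kat6a* null embryos were further from WT, and nearer to *Kat6a* null for 36 and beyond it for 5. For the 136 higher genes these counts were 64, 30, 30 and 12. WT thus lay on the *Kat6b* null side for 149 of the 232 genes. The share over all genes tested was not counted, so these counts have no baseline and are a description. Over whole transcriptomes the mean distance to WT was 1.52 for *Kat6a* null and 1.40 for *Kat6b* null embryos. Of the 232 genes, 78 were called between *Kat6a* null and WT embryos (2.64% of all genes tested) and 19 between *Kat6b* null and WT embryos (0.508%). The WT libraries are shared by these last 2 comparisons, and the null libraries are those with which the 232 genes were called. WT replicate 1 was a littermate of a *Kat6a* null embryo and WT replicate 3 of a *Kat6b* null embryo. WT replicates 2 and 4 came from litters 683 and 685, without null embryos. Litter, colony and genotype therefore cannot be told apart in the position of WT.

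In a run of 6 called genes on chromosome 4, 1 WT library stood with the *Kat6a* null embryos and apart from the other WT libraries for 4 genes. *Il11ra1*, *Rpp25l*, *Dctn3*, *Galt*, *Il11ra3* and *Il11ra2*, which lie between 41699989 and 42665763, were all higher in *Kat6a* null embryos. They were the only called genes among the 50 tested between 41 and 44 Mb (of all genes tested, 1.64% were called). *Rpp25l*, which encodes a subunit of ribonuclease P and MRP, was at 55.9, 52.1, 52.1 and 67.99 CPM in *Kat6a* null and 32.4, 30.9, 29.2 and 28.7 in *Kat6b* null embryos (log2 difference 0.83, SE 0.18, FDR=0.0353). WT replicate 1 was at 62.5 CPM, within the *Kat6a* null range, while the 3 other WT libraries, at 29.9, 29.9 and 30.7, were within the *Kat6b* null range. WT replicate 1 came from litter 5556, as did *Kat6a* null replicate 2. *Dctn3*, a dynactin subunit gene, was at 66.1, 59.6, 60.8 and 84.3 CPM in *Kat6a* null, 35.4, 34.3, 34.1 and 32.4 in *Kat6b* null and 75.9, 39.4, 39.6 and 41.97 in WT embryos (log2 difference 0.93, SE 0.18, FDR=0.0255). *Galt*, the galactose metabolism gene, was at 20.5, 19.99, 22.4 and 23.7 CPM in *Kat6a* null, 13.7, 9.08, 12.2 and 10.1 in *Kat6b* null and 23.8, 12.5, 12.5 and 9.06 in WT embryos (log2 difference 0.89, SE 0.16, FDR=0.0102). For both genes WT replicate 1 was again at the *Kat6a* null level and well above the 3 other WT libraries. Within litter 5556 the *Kat6a* null embryo was below its WT littermate for all 6 genes, by log2 differences of -0.51 (*Il11ra3*) to -0.23 (*Il11ra2*). *Il11ra2* had the largest log2 difference of all called genes (log2 difference 1.68, SE 0.27, FDR=0.00341), at 3.53, 2.19, 2.97 and 4.45 CPM in *Kat6a* null and 1.09, 1.21, 1.21 and 0.624 in *Kat6b* null embryos, and here all WT libraries, at 2.59, 1.97, 2.79 and 2.14, were above the *Kat6b* null libraries and WT replicate 1 did not stand apart. *Il11ra3* was at 2.74, 2.39, 3.83 and 3.23 CPM in *Kat6a* null, 1.58, 1.26, 1.54 and 0.686 in *Kat6b* null and 3.46, 2.401, 2.45 and 2.305 in WT embryos (log2 difference 1.19, SE 0.27, FDR=0.0272), where WT replicates 1, 2 and 3 lay within the *Kat6a* null range and all WT libraries above *Kat6b* null. The interval is known for duplicated segments and the 3 *Il11ra* genes are near-identical copies, so the split of reads among copies is uncertain. For *Il11ra1*, *Rpp25l*, *Dctn3* and *Galt* a level as high as in *Kat6a* null embryos was thus also present in 1 WT embryo. The *Kat6a* E/E libraries were at 35.5, 39.7, 43.7 and 34.6 CPM for *Dctn3* and 28.4, 32.4, 36.2 and 32.3 CPM for *Rpp25l*. In the comparison of the nulls litter, colony and genotype cannot be told apart for the 6 genes, and the cause was not tested.

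**Figure D4:**
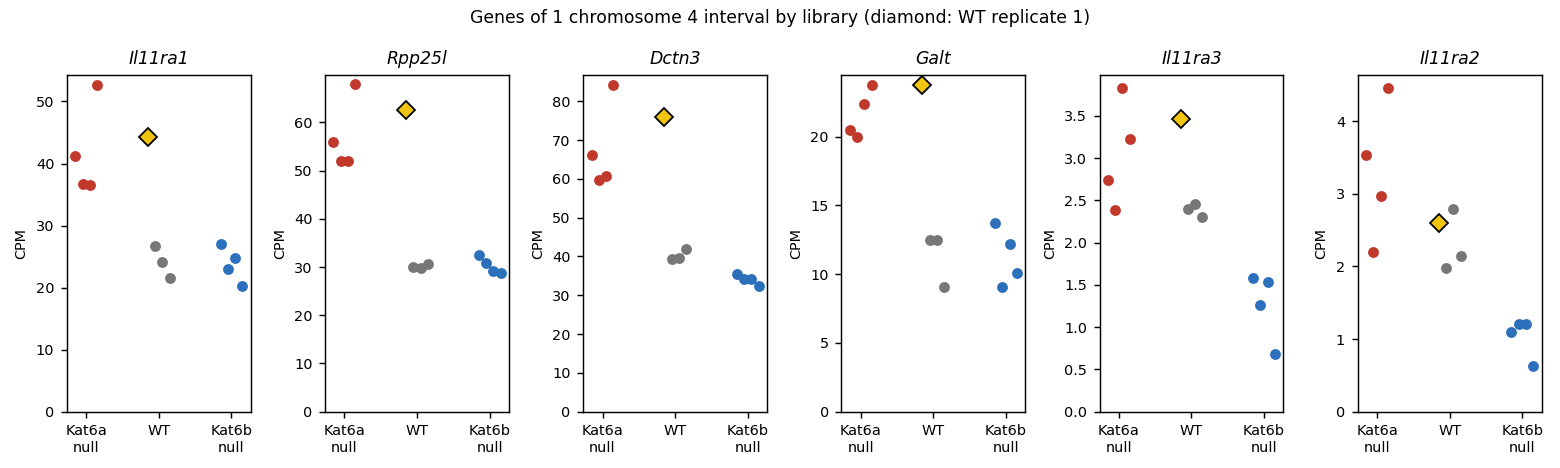
CPM (vertical axes, starting at 0) of the 6 called genes of the chromosome 4 interval in the 4 *Kat6a* null (red), 4 WT (grey) and 4 *Kat6b* null libraries (blue), with WT replicate 1 of litter 5556 as a yellow diamond. For *Il11ra1*, *Rpp25l*, *Dctn3* and *Galt* the diamond lies with the *Kat6a* null libraries and the 3 other WT libraries lie nearer to the *Kat6b* null libraries.

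Within litter 5556 some other leading genes differed between the *Kat6a* null embryo and its WT littermate in the direction of the null contrast. This null embryo was among the libraries with which the genes were called. *Wnt5a* was slightly higher in it than in its WT littermate, opposite in sign to the null contrast. That contrast is a different comparison, and in it the *Kat6b* null embryos lay further from WT for *Wnt5a*. The log2 difference of that pair was -0.74 for *Fgfbp3*, -0.53 for *Foxc2*, -0.42 for *Skida1*, 0.46 for *Zic1* and 0.22 for *Commd3*. For *Hoxb1* it was -0.052, far from the -0.43 estimated over all *Kat6a* null and WT libraries. In the other litter with a null and a WT embryo, *Kat6b* null replicate 2 minus WT replicate 3 was -0.82 for *Slc7a11*, 0.28 for *Npm1* and 0.27 for *Wnt5a*, each with the sign of the estimate over all *Kat6b* null and WT libraries, while for *Ajuba* it was 0.04 beside -0.23. Each pair is 1 embryo of each genotype, and both null embryos had high *Xist*, so there is no replicate check.

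Genes near the targeted loci were counted by distance. Within 10 Mb of the start of *Kat6a*, 3 of 76 genes tested were called (3.95%), *Hook3*, a microtubule linker gene (-0.35, FDR=0.0193), *Plekha2* (0.49, FDR=0.0285) and *Tdrp* (0.57, FDR=0.039). Within 10 Mb of *Kat6b*, 3 of 116 were called (2.59%), *Kat6b* itself, *Wnt5a* and *Ccdc66* (-0.36, FDR=0.0343). Of all genes tested 1.64% were called, and within 20 Mb of the 2 loci 1.83% and 2.30%.

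Point mutants of the same paralogues gave a comparison in other embryos. Between *Kat6a* E/E and *Kat6b* E/E embryos 0 genes were called in limma (700 at an unadjusted p below 0.05, 4.94%), and edgeR's quasi-likelihood test with the surrogate variables also called 0 (796 at an unadjusted p below 0.05). Of the 232 genes called between the nulls, 141 had the same sign between the point mutants. An unadjusted p below 0.05 in limma was reached by 31 (13.4%), 22 of these with the same sign. The share of all genes tested with the same sign in both contrasts was not counted. The counts of 141 and 22 thus have no baseline and are a description. The fit gives each gene 1 estimate of its spread for both contrasts, so the 2 sets of p-values are not independent. Both contrasts also share the surrogate variables, through which point mutant libraries entered the estimate of the null contrast. In the unweighted design their weights included 7.14% for *Kat6b* E/E replicate 4 and -6.13% for *Kat6a* E/E replicate 2. The 2 sets of estimates are therefore linked as well. The median point mutant difference was -0.03 for the 96 lower and 0.02 for the 136 higher genes, beside 0.0029 over all genes. *Commd3* was the clearest of these genes, at 27.4, 30.5, 30.3 and 26.2 CPM in *Kat6a* E/E and 23.9, 23.7, 19.7 and 22.8 in *Kat6b* E/E embryos (log2 difference 0.36, SE 0.072, FDR=0.178 in limma). The point mutant groups of *Commd3* did not overlap. *Bmi1*, not called between the nulls, was at 111, 118, 112 and 121 CPM in *Kat6a* E/E and 89.5, 89.4, 101 and 89.3 in *Kat6b* E/E embryos (log2 difference 0.30, SE 0.061, FDR=0.178). *Arap1* (0.29) and *Hoxa5* (-0.35) had differences between the point mutants of nearly the size seen between the nulls, while *Skida1*, at -0.045, and *Bhlhe22*, at -0.093, did not. *Ddx4*, a germ cell RNA helicase gene named here after its value was seen, was at 2.56, 1.39, 1.95 and 1.498 CPM in *Kat6a* null, 0.729, 0.944, 0.793 and 1.06 in *Kat6b* null, 1.43, 1.47, 1.66 and 1.93 in *Kat6a* E/E and 1.08, 0.685, 0.945 and 1.37 in *Kat6b* E/E embryos (log2 difference 1.16, SE 0.26, FDR=0.0258 between the nulls and log2 difference 0.80, SE 0.26, FDR=0.745 between the point mutants).

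The null contrast and the point mutant contrast were also tested against each other. Their difference passed FDR<0.05 for 6 genes of 14183 (0.0423%). For *Rplp2* the null contrast was 0.30 and the point mutant contrast -0.27 (difference of the 2 contrasts 0.57, SE 0.099, FDR=0.0441). *Rpl23a*, *Rpl38* and the retrogene *Aldoart1* also went in opposite directions in the 2 contrasts, at 0.46 and -0.62, 0.39 and -0.47, and 0.45 and -0.31. *Ube2s*, which encodes a ubiquitin-conjugating enzyme of mitosis, was at 0.20 and -0.23, and *U2surp* at -0.24 and 0.055. Of these 6, *Aldoart1* and the 3 ribosomal protein genes have near-identical copies and are uncertain. The number of calls was 0 without *Kat6a* null replicate 1 or 2, *Kat6b* null replicate 3 or 4 or WT replicate 2 or 4, 1 without *Kat6a* null replicate 3 or WT replicate 3, 3 without *Kat6a* null replicate 4, 4 without *Kat6b* null replicate 2 and 26 without *Kat6b* null replicate 1. For *Skida1* the test of this difference gave FDR=0.0894, and for *Zic1* FDR=0.059.

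**Figure D5:**
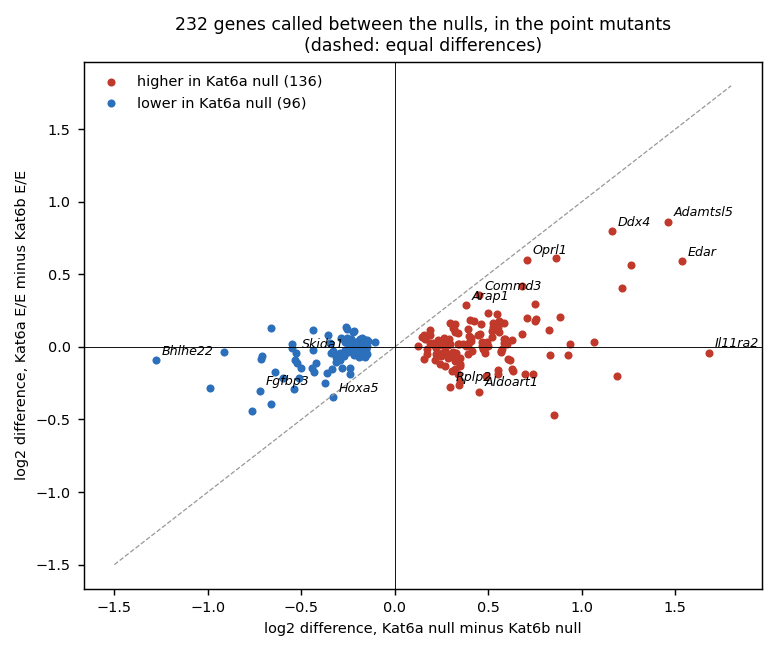
Log2 difference between *Kat6a* E/E and *Kat6b* E/E embryos (vertical axis) against the log2 difference between *Kat6a* null and *Kat6b* null embryos (horizontal axis) for the 232 genes called between the nulls, with a dashed line of equal differences. Most points lie near 0 on the vertical axis, and *Commd3*, *Hoxa5* and *Oprl1* lie close to the dashed line.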

How the data were processed

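RNA from whole E9.5 embryos was sequenced by the authors, who aligned read pairs to mouse build mm39 and counted them per RefSeq gene with featureCounts (Rsubread, version not given in the sources used here). The deposited values are raw counts per gene, 1 table per library, with Entrez identifiers, gene lengths and no normalisation. Whether counting used strand is not given in the sources used here, so reads of overlapping genes may be shared. The 24 embryo libraries were used here and the 16 libraries of foetal liver cells at E14.5 were not. Each library was grouped by its genotype labels, and 0 columns of other samples were present. Of 26411 genes in the tables, 26359 were matched by Entrez identifier to an NCBI RefSeq gene table (GRCm38, used for names and gene types only) and 21030 were protein-coding genes not linked to the Y chromosome. Of these, 14183 passed filterByExpr of edgeR and were tested. The 8 null libraries held 8401990 to 21929384 counts and the WT libraries 11823454 to 19078839.

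The fit followed the study's methods: TMM scaling, 4 surrogate variables (wsva of limma), voomLmFit of edgeR with litter as a random block (correlation 0.107), all 24 libraries and 6 genotypes in 1 model, robust empirical Bayes moderation and Benjamini-Hochberg adjustment (R 4.3.3, limma 3.58.1, edgeR 4.0.16, DESeq2 1.42.0). No fixed prior count enters the CPM values. Tests are two-sided. Alternatives were other numbers of surrogate variables, edgeR's quasi-likelihood test, DESeq2 without surrogate variables, scaling by DESeq2 size factors, tests without a filter on low counts, inclusion of all gene types, no litter block, a replicate block, fewer libraries and leaving out each library. A sex term and leaving out the 3 libraries with high *Xist* were added after seeing the data. Counts were simulated for 14183 genes in the comparison of the nulls, without differences between litters or sexes. On them the fit called 51% of 100 genes changed by 0.5 and 72% of 100 genes changed by 1 on the log2 scale. There were 9 false calls. These values describe such counts, and the rates in the embryos were not tested.

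The comparison, gene lists and tests were chosen with earlier results of these data known, and some lists come from the study's own findings on these samples. Genes were named by rule: the targeted genes, the 12 called genes with the smallest p in each direction, up to 4 called members of each list (or the 2 with the smallest p), called genes near the targeted loci and 8 genes that earlier results had named. The epithelial list and its further members, the chromosome 4 genes, *Oprl1* and the genes that differed between the null and point mutant contrasts were chosen after their values were seen. Positions and sequences are from GRCm39 with GENCODE vM39 canonical transcripts, matched by symbol, and 39 tested genes had none. The same replicate number did not mark a shared litter.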

Additional observations from a re-analysis of the deposited data

Results flagged for a closer look

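In 13 of 228 groups of 4 libraries examined (5.70%, where chance gives about 1 in 20), 1 library lay far from the other 3 by Dixon's criterion. Among genes called between the nulls these were *Kank1* in *Kat6a* null replicate 3 (88.9 CPM, the others 93.8 to 94.2), *Mphosph8* in *Kat6b* null replicate 1 (62.6, the others 76.0 to 78.5), *Hoxa5* in *Kat6b* null replicate 1 (36.9, the others 25.6 to 27.0), *Notch1* in *Kat6a* null replicate 2 (123, the others 104 to 105), *Cdon* in *Kat6b* null replicate 4 (126, the others 109.5 to 112), *Rpl37a* in *Kat6a* null replicate 1 (85.6, the others 72.3 to 74.4) and *Plekha2* in *Kat6b* null replicate 2 (22.5, the others 27.6 to 28.1). Among genes not called they were *Hoxc9* in *Kat6b* null replicate 1 (20.5 CPM, the others 17.0 to 17.4), *Pax8* in *Kat6a* null replicate 1 (2.91, the others 4.21 to 4.46), *Cdkn2c* in *Kat6b* null replicate 3 (3.17, the others 1.89 to 2.07), *Mcm6* in *Kat6b* null replicate 2 (491, the others 458 to 461), *Lin28b* in *Kat6a* null replicate 4 (194, the others 175 to 175) and *Nfe2*, an erythroid factor gene, in *Kat6b* null replicate 3 (11.0, the others 4.55 to 5.46).

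For 6 genes the difference between the *Kat6a* and *Kat6b* mutants was not the same in nulls and point mutants (limma, FDR=0.0441 for each). The null contrast minus the point mutant contrast was 0.57 for *Rplp2*, 1.08 for *Rpl23a*, 0.76 for *Aldoart1*, 0.86 for *Rpl38*, 0.43 for *Ube2s* and -0.29 for *U2surp* on the log2 scale.

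*Xist*, a non-coding RNA outside the genes tested, had 7934 counts in *Kat6a* null replicate 2, 12117 in *Kat6b* null replicate 2 and 16195 in *Kat6b* null replicate 3, against at most 6 in the other embryo libraries, although the study describes the embryos as male.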

How the results depend on the processing

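No named gene reversed its direction under any alternative. The 232 calls between the nulls became 27 with 0 and 66 with 2 surrogate variables, 48 by edgeR's quasi-likelihood test without surrogate variables, 378 with no filter on low counts, 1349 with only the 12 null and WT libraries, 71 with a sex term and 0 without the 3 null libraries with high *Xist*. Besides the replicate block, given separately, they were 187 to 297 under the other settings that kept all libraries of the contrast and 30 to 477 when each library was left out. Calls between the point mutants were 2 with 6 surrogate variables, 2 with no filter, 1 without the libraries with high *Xist* and 0 to 1 when a library was left out. The 6 genes differing between the null and point mutant contrasts became 0 with 0 or 2 surrogate variables, with edgeR without surrogate variables or with DESeq2 size factors, 44 with 6 surrogate variables, 20 without the litter block, 19 by edgeR with 4 surrogate variables, 29 with no filter, 12 with all gene types, 1 with the sex term, 7 without the libraries with high *Xist* (2 of them among the 6) and 0 to 26 when a library was left out. Within 5 Mb of *Kat6b* 1 of 60 genes tested was called, *Kat6b* itself (1.67%, beside 1.64% of all genes tested). All 62 named genes that were called lost their call without the libraries with high *Xist*, and 48 of them with 0 surrogate variables. The causes were not tested.

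With the replicate block, 395 genes were called between the nulls, 197 of them among the 232, and 12 differed between the null and point mutant contrasts. Null libraries with the same number deviated from their group means with correlations of 0.13, 0.05, 0.16 and -0.02, so the numbers do not pair the embryos.

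With 4 embryos a group, 51% of the genes changed by 0.5 on the log2 scale were called in simulated counts for the comparison of the nulls. These counts held no differences between litters or sexes, so the share missed in the embryos was not tested.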
